A study of Homo sapiens with 6 samples.

Results

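Nuclear-encoded subunits of respiratory complexes II, III, IV and V were followed in A549 cells, an established human lung adenocarcinoma line, after an shRNA against S100A4. The set holds 39 genes, listed by name: 4 of complex II, 9 of complex III, 11 of complex IV and 15 of complex V. All 39 were found among the 25141 genes with a value, each with 1 transcript cluster, the set of array probes for a transcribed locus. Cells stably carrying a lentiviral shRNA against S100A4 (3 arrays) were compared with cells stably carrying a lentiviral control shRNA (3 arrays). Both lines grew in medium with 10% serum to about 70% confluence, for 3 days by the sample description and 2 days by the treatment protocol. The labels name 1 shRNA per group, so the arrays do not measure how a different shRNA or a separately made line would vary. Complex I and the subunits encoded by mitochondrial DNA are not in the set.

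Oxidative phosphorylation passes electrons down a chain of protein complexes in the inner mitochondrial membrane. Complex II takes electrons from succinate and hands them to ubiquinone, complex III moves them on to cytochrome c, and complex IV gives them to oxygen. Complexes III and IV pump protons across the membrane, and complex V, the ATP synthase, lets the protons flow back through a rotor of c subunits to make ATP. Its catalytic head is held still against that rotor by a peripheral stalk.

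S100A4, the shRNA's target and a calcium-binding protein, had log2 signals of 5.74, 5.51 and 5.44 on the S100A4 shRNA arrays, against 7.57, 7.12 and 7.18 on the control arrays. It fell by 1.73 on the log2 scale (SE 0.13, limma adjusted p = 0.000453), and no S100A4 shRNA array reached the lowest control array. Its signal lay above the 95th percentile of the negative control probe sets on 2 of the 6 arrays. Across the array, 2910 of 25141 genes were called, that is, had a limma adjusted p under 0.05. Among the markers of an epithelial carcinoma line, 6 of 8 lay above that percentile on all 6 arrays, and 0 of 6 alveolar type II, 0 of 5 leukocyte, 0 of 4 endothelial, 0 of 5 fibroblast and 1 of 5 striated muscle markers did. Of those 8 epithelial markers, CDH1 rose, KRT8 and KRT18 fell, and KRT19, called higher, lay above that percentile on 0 arrays. The median of the array's positive housekeeping controls was 13.3 ± 0.13 on the S100A4 shRNA arrays and 13.5 ± 0.06 on the control arrays (log2 signal, SD, n = 3 each). The part of that difference in the values below was not tested, apart from the recalculation in which each array was shifted to equal positive controls.

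Of the 39 subunit genes, 1 was called lower with S100A4 shRNA and 0 were called higher, where 5.49% of all genes were called lower and 6.08% higher. The called gene was ATP5PB, which encodes the b subunit of the peripheral stalk of ATP synthase. The other 38 genes had log2 folds between -0.35 and 0.37. Counted without adjustment, limma's p was under 0.05 for 2 genes in the higher direction (COX5A and COX7A2) and 4 in the lower (ATP5PB, ATP5MC1, ATP5MC3 and ATP5F1A). The same threshold took 12.4% and 14.0% of all genes. Arrays of the groups did not overlap for 4 genes that were higher (COX5A, COX7A2, COX4I1 and ATP5F1C) and 5 that were lower (ATP5PB, ATP5MC1, ATP5MC3, ATP5F1A and UQCRC1), where 14.3% and 18.5% of all genes did so. The set's share was under that of all genes in each of these counts.

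Signals of the 39 genes ran from 5.54 to 16.4 on the log2 scale. On all 6 arrays 29 of them lay above the 95th percentile of the negative controls, 4 did so on some arrays, and 6 on none. For 37 of the 39 genes the 95% confidence interval of the fold lay within 1.5-fold in either direction, and the exceptions were ATP5PB and COX6A1. The median log2 fold over the 39 was 0.03, against -0.03 over all genes and 0.01 over the 12572 genes in the upper part of the signal range. In 23 of the 39 the fold was above 0. With arrays shifted to equal positive controls, the median of all genes moved to 0.19 and that of the set to 0.26. The shift moves every gene's fold by the same amount. The set's distance of 0.065 above all genes on the log2 scale is therefore unchanged by construction, and its constancy tests nothing. That shift also took the number of subunit genes called to 10 of 39 (25.6%), and that of all genes called to 20.5%. In the authors' deposited table, which rests on another summarisation of the arrays, 1 of the 39 was called after adjustment, again ATP5PB and again lower. There 2.12% of all genes were called, and 1.07% were called lower.

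**Figure D1:**
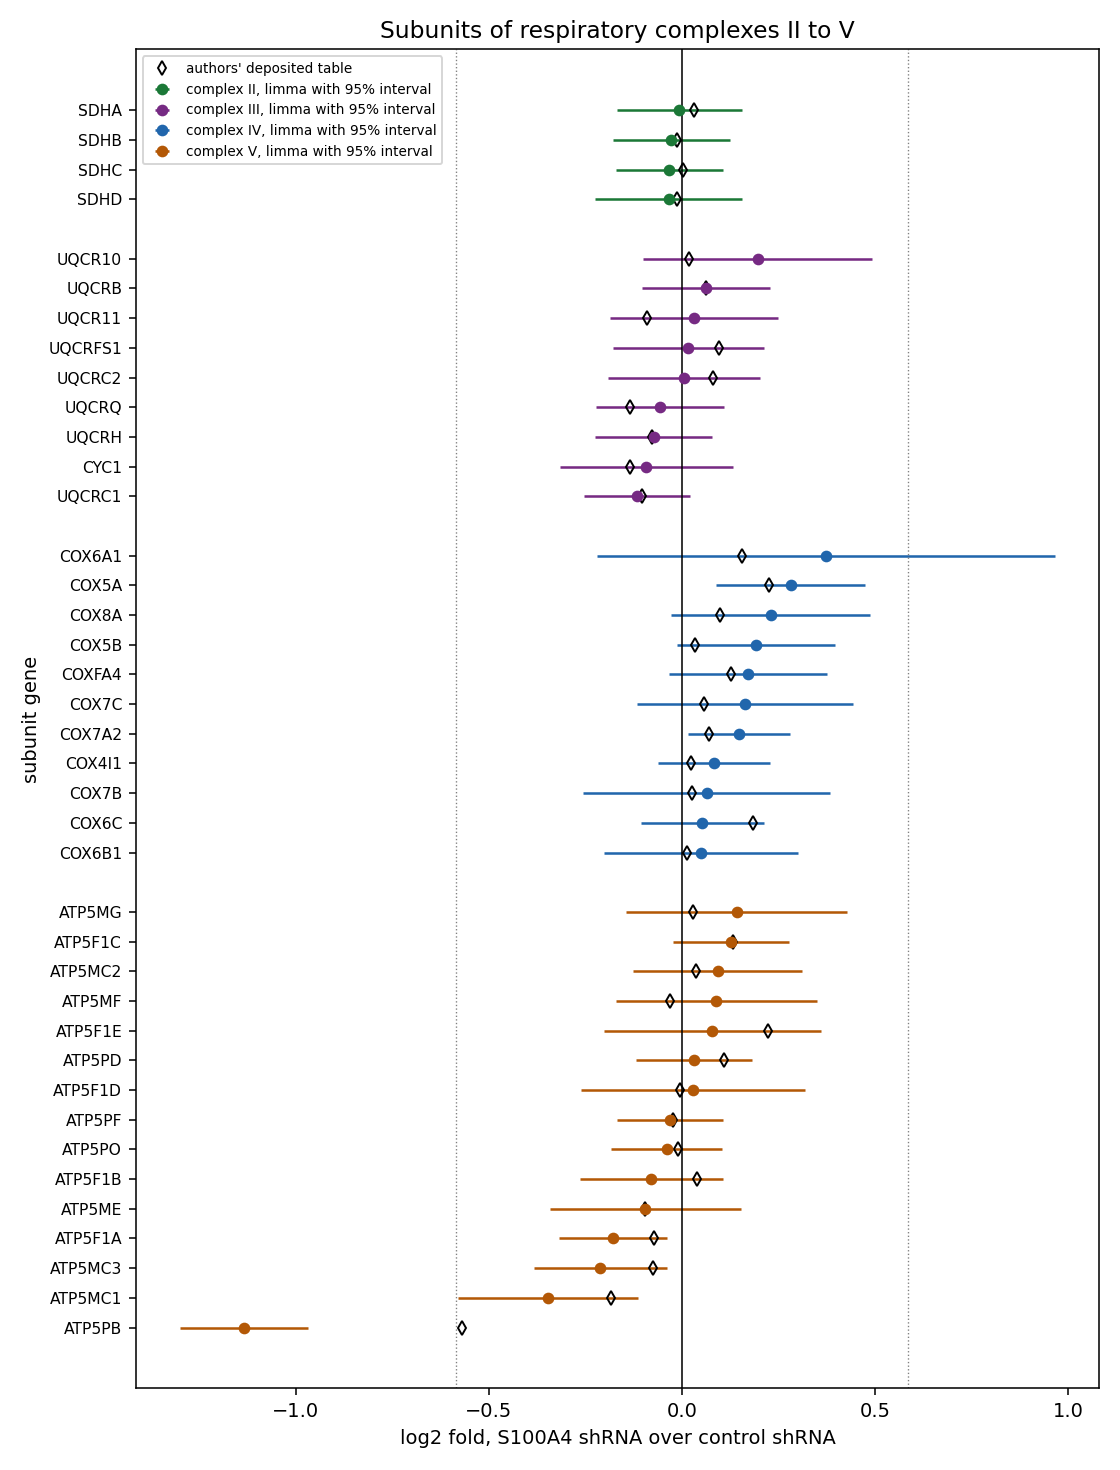
Log2 fold of each of the 39 subunit genes (x axis, S100A4 shRNA minus control shRNA) with limma's 95% confidence interval, grouped by complex down the page, the value from the authors' deposited table (open diamond), and dotted lines at 1.5-fold either way. ATP5PB stands apart at -1.13, and all 11 genes of complex IV lie above 0.

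The promoter of ATP5PB is shown because it also holds the start of WDR77, the other gene that fell at this locus. The window runs from 250 bases before to 50 bases after the ATP5PB start (RefSeq, GRCh38.p14, plus strand, chr1:111449214-111449513). Capitals mark the matches to the motifs that were searched, described with the motif counts.
ATP5PB promoter: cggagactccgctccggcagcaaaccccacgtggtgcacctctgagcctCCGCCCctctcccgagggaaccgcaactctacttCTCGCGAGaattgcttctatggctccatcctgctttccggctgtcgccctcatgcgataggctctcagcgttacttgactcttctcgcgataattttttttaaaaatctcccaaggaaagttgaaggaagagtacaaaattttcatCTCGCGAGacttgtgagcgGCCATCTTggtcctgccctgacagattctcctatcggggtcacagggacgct
ATP5PB starts at base 251 of this run and is read to the right. WDR77 starts at base 43 on the opposite strand and is read to the left, 208 bases away. The promoter windows of both genes share 293 bases.

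ATP5PB had log2 signals of 9.91, 9.96 and 10.08 on the S100A4 shRNA arrays, against 11.19, 11.13 and 11.04 on the control arrays. Every S100A4 shRNA array lay below every control array, and the gap between the groups was several times the spread within either. The gene fell by 1.13 on the log2 scale (SE 0.072, 95% interval -1.30 to -0.97, limma adjusted p = 0.000244), a signal 2.20-fold lower. An exact permutation test of the 6 values gave p = 0.1, the smallest that 3 against 3 arrays allow. The arrays read the RNA of whole cultures, so fewer cells of a type and less RNA per cell cannot be told apart. Among all genes its fold ranked 36 from the lowest. ATP5PB was called in 15 of 15 alternative settings, with folds from -1.18 to -0.57. The smallest of these is the authors' deposited table, which gives a ratio of 0.673, a log2 difference of -0.57, and an adjusted p of 0.0263.

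WDR77 encodes a WD-repeat protein of the methylosome, the partner of the arginine methyltransferase PRMT5. Its log2 signals were 8.42, 8.43 and 8.37 on the S100A4 shRNA arrays, against 9.10, 8.95 and 8.92 on the control arrays. The groups did not overlap, and the gene fell by 0.58 on the log2 scale (SE 0.068, limma adjusted p = 0.00216). In the authors' deposited table its log2 difference was -0.24 with an adjusted p of 0.0812, so it was not called there, whereas the other 14 alternatives called it. C1orf162, the nearest protein-coding gene on the other side of ATP5PB, differed by -0.19 on the log2 scale (limma adjusted p = 0.114), and it lay above the negative controls' 95th percentile on 0 arrays. Of the 20 nearest measured protein-coding genes, 10 on each side, WDR77 was the 1 called, where 11.6% of all genes were called. The median log2 fold over the 20 was -0.045. Most of the 20, CD53, CHI3L2, OVGP1, ADORA3 and KCND3 among them, lay above that percentile on 0 arrays, so a change in their RNA may not be visible.

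**Figure D2:**
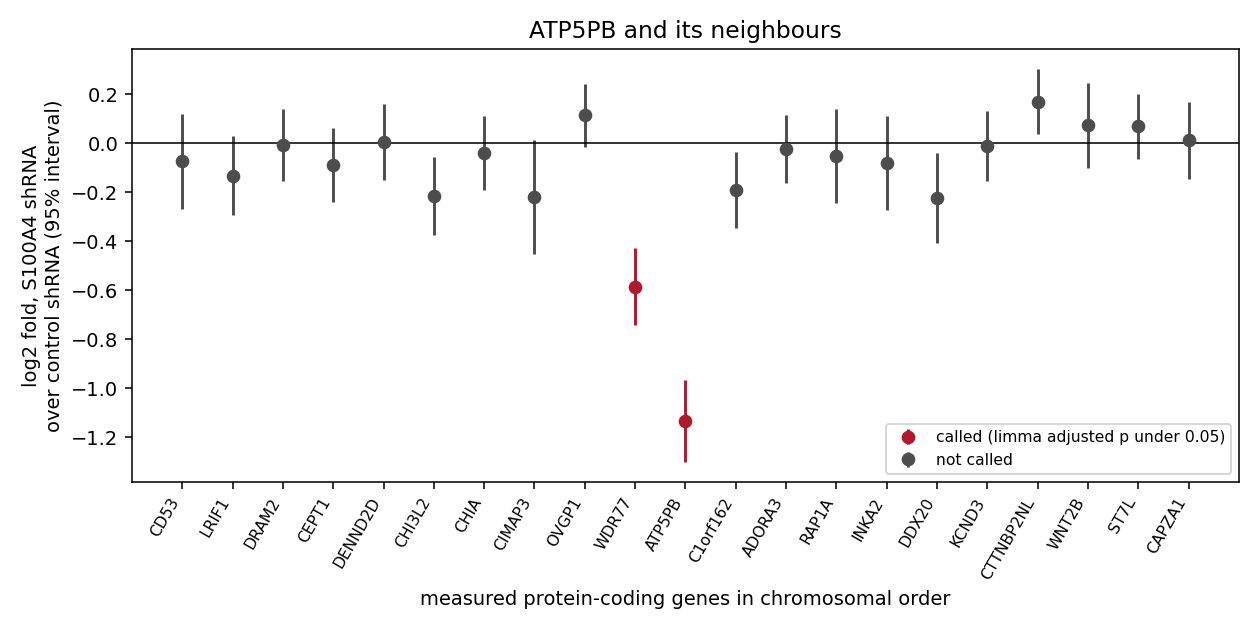
Log2 fold (y axis, S100A4 shRNA minus control shRNA, with limma's 95% confidence interval) of ATP5PB and the 10 measured protein-coding genes on each side, in chromosomal order (x axis). ATP5PB at -1.13 and WDR77 at -0.58 are the lowest, and the other neighbours reach up to 0.17.

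A gene read in the opposite direction started within 1000 bases of 11 of the 31 subunit genes with a promoter entry (35.5%), against 12.0% of the 14838 measured protein-coding genes. WDR77 was the 1 called partner of the 11, where 13.9% of all such pairs had a called partner. The nearest to a call among the others were GABPA, which shares its start region with ATP5PF and encodes the DNA-binding part of an ETS-family factor (log2 fold -0.26, limma adjusted p = 0.0539), and KCTD2, beside ATP5PD (0.25, limma adjusted p = 0.0547). The EMC8 gene beside COX4I1 had -0.32 (limma adjusted p = 0.163). The remaining partners, CCDC127, LRRC41, GDF9, ZMAT5, HAUS1, KIN and MYL5, had folds between -0.075 and 0.064. Over all pairs whose first gene was called lower, the partner was called lower in 22 of 167 (13.2%), against 9.30% of all pairs. These counts enter each pair from both of its genes, so the 22 are not separate pairs. ATP5PB with WDR77 is among them, entered from each side. Whether the 2 shares differ was not tested.

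The other subunits of the peripheral stalk were not called. ATP5PD, the d subunit, had a log2 fold of 0.031, ATP5PF, coupling factor 6, had -0.032, and ATP5PO, the subunit that joins the stalk to the head, had -0.040. ATP5PO lay under the 95th percentile of the negative controls on all 6 arrays, so a change in its RNA may not be visible there.

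The c subunits of the rotor come from 3 genes that encode the same mature protein. ATP5MC1 had log2 signals of 9.34, 9.14 and 9.36 on the S100A4 shRNA arrays, against 9.80, 9.48 and 9.59 on the control arrays. Its groups did not overlap, with a log2 fold of -0.35 (SE 0.10, limma adjusted p = 0.0666). It was not called here, and it was called with the replicate number as a block, after quantile normalisation and with the lower 50% of genes left out. With arrays shifted to equal positive controls its fold was -0.12 (limma adjusted p = 0.382), and the authors' deposited table gives -0.18. ATP5MC3 had 7.05, 7.08 and 7.15 on the S100A4 shRNA arrays, against 7.43, 7.27 and 7.22 on the control arrays, a log2 fold of -0.21 (limma adjusted p = 0.115). ATP5MC3 was called after quantile normalisation (limma adjusted p = 0.0257). Its fold was 0.016 with arrays shifted to equal positive controls and -0.076 in the authors' deposited table. ATP5MC2 had 6.63, 6.44 and 6.70 on the S100A4 shRNA arrays, against 6.59, 6.35 and 6.55 on the control arrays, so its groups overlapped and its fold was 0.093. ATP5MC2 lay under the negative controls' 95th percentile on all 6 arrays and ATP5MC3 was above it on 4.

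In the catalytic head, ATP5F1A, the alpha subunit, had log2 signals of 11.57, 11.47 and 11.58 on the S100A4 shRNA arrays, against 11.69, 11.75 and 11.72 on the control arrays. The groups were apart by a small step, a log2 fold of -0.18 (limma adjusted p = 0.105). That fold was 0.050 with arrays shifted to equal positive controls and -0.073 in the authors' deposited table. Its catalytic partner ATP5F1B, the beta subunit, had a fold of -0.079. ATP5F1C, the gamma subunit that turns inside the head, had 15.62, 15.64 and 15.59 on the S100A4 shRNA arrays, against 15.59, 15.42 and 15.47 on the control arrays. Its lowest S100A4 shRNA array stood just above its highest control array, and its fold was 0.13. The other central stalk subunits, ATP5F1D and ATP5F1E, had folds of 0.029 and 0.078.

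Among the small membrane subunits, which help to shape the dimer of ATP synthase, ATP5MG had 7.63, 7.55 and 8.02 on the S100A4 shRNA arrays, against 7.64, 7.51 and 7.64 on the control arrays. S100A4 shRNA replicate 3 carried that difference, a log2 fold of 0.14, which was -0.0033 without that array. ATP5MF and ATP5ME had folds of 0.089 and -0.095. Without ATP5PB, the 14 genes of complex V divided evenly, 7 above 0 and 7 below, with a median log2 fold of -0.0012.

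**Figure D3:**
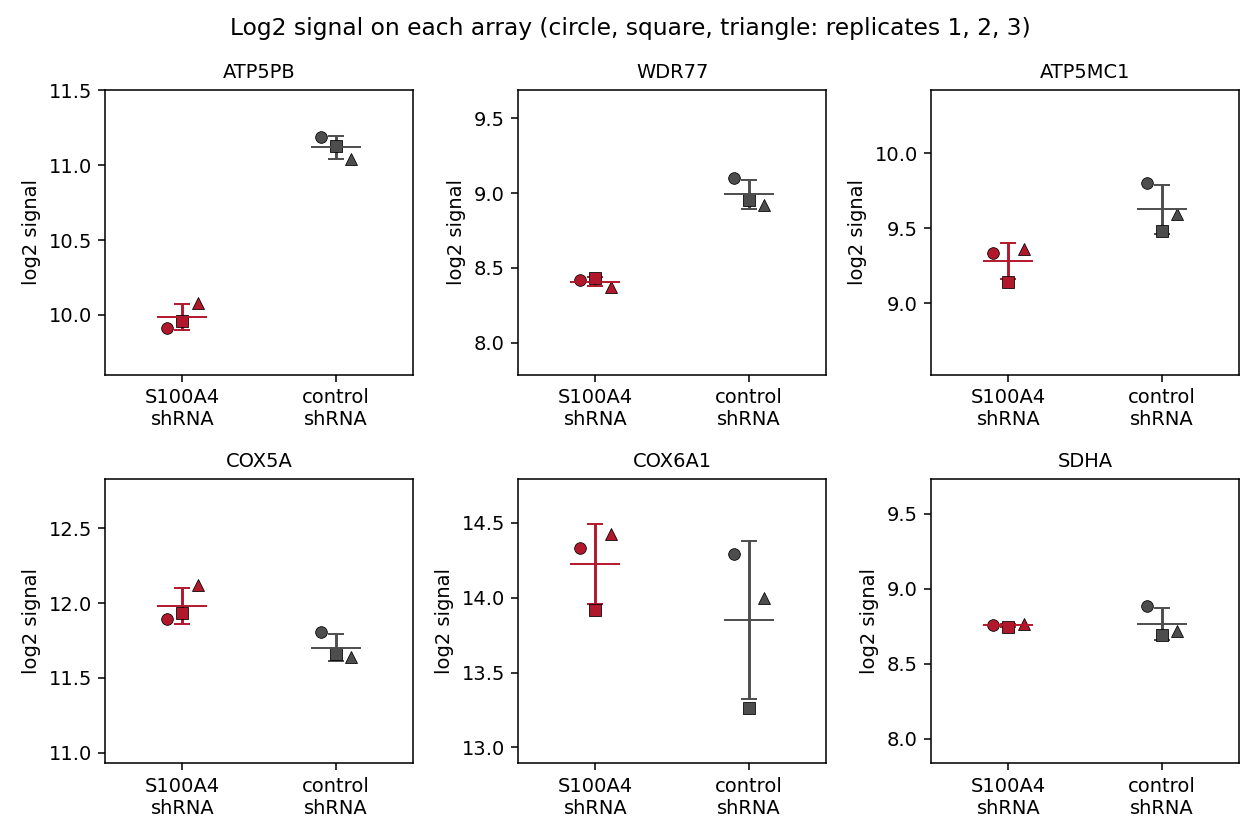
Log2 signal (y axis, the same span in every panel) of ATP5PB, WDR77, ATP5MC1, COX5A, COX6A1 and SDHA on each array (points, shaped by replicate), with group mean (line) and SD (bar, n = 3), S100A4 shRNA left of control shRNA. The groups are far apart for ATP5PB, apart for WDR77, ATP5MC1 and COX5A, and overlap for COX6A1 and SDHA.

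In complex IV, cytochrome c oxidase, all 11 listed subunits had a log2 fold above 0, from 0.049 to 0.37, and 0 of them were called. Across all genes 41.3% had a fold above 0, as did 6557 of the 12572 genes in the upper part of the signal range. The median over the 11 was 0.16, and in the authors' deposited table all 11 were above 0 as well, with a median log2 difference of 0.069. This complex was singled out after its values were seen, so its count is a description and has no test.

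COX5A, a matrix-facing subunit, had log2 signals of 11.89, 11.93 and 12.12 on the S100A4 shRNA arrays, against 11.80, 11.66 and 11.64 on the control arrays. All S100A4 shRNA arrays were above all control arrays, with a fold of 0.28 (SE 0.083, 95% interval 0.089 to 0.47, limma adjusted p = 0.0708). COX5A was called with array weights, with the lower 50% of genes left out and with arrays shifted to equal positive controls. COX6A1, the widely expressed form of subunit VIa, had 14.33, 13.92 and 14.43 on the S100A4 shRNA arrays, against 14.29, 13.26 and 14.00 on the control arrays. Control replicate 2 was far below the other arrays for this gene, and the fold of 0.37 had an interval of -0.22 to 0.97. Without that array the fold was 0.080, and the authors' deposited table gives 0.15.

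At the other end of the complex, COX6B1, a subunit on the intermembrane side, had 12.96, 12.71 and 13.14 on the S100A4 shRNA arrays, against 12.95, 12.88 and 12.84 on the control arrays. COX6C had 6.52, 6.62 and 6.60 on the S100A4 shRNA arrays, against 6.59, 6.56 and 6.43 on the control arrays. Both genes overlapped between groups, with folds of 0.049 and 0.052, and COX6C lay under the negative controls' 95th percentile on all 6 arrays. COX5B and COXFA4 were above it on 4 arrays. The remaining folds were 0.23 for COX8A, 0.19 for COX5B, 0.17 for COXFA4, 0.16 for COX7C, 0.15 for COX7A2 (limma adjusted p = 0.148), 0.082 for COX4I1 and 0.064 for COX7B. COXFA4 is carried in the deposited annotation under its older name NDUFA4, from when it was counted with complex I.

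Control replicate 2 weighed on these values. It gave the lowest of all 6 signals for 7 of the 11 complex IV genes, and S100A4 shRNA replicate 3 gave the highest of its group for 9. In the other direction, S100A4 shRNA replicate 2 gave the lowest of its group for 7, and control replicate 1 the highest of its group for 10. Without control replicate 2 the median over the 11 was 0.080 with 10 above 0, and without S100A4 shRNA replicate 3 it was 0.14 with 9 above 0. Without control replicate 1 it was 0.25 and without S100A4 shRNA replicate 2 it was 0.20, each with 11 above 0. After quantile normalisation it was 0.099 with 10 above 0, and with arrays shifted to equal positive controls 0.39.

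In complex III, 5 of 9 genes had folds above 0 and 4 below, with a median of 0.0063 and 0 called. UQCRC1, a core protein of the matrix side, had log2 signals of 9.89, 9.78 and 9.84 on the S100A4 shRNA arrays, against 9.97, 9.92 and 9.96 on the control arrays. The groups did not overlap, and the step was small, a fold of -0.12 (limma adjusted p = 0.256). CYC1, the cytochrome c1 that hands electrons to cytochrome c, had 9.78, 9.59 and 9.58 on the S100A4 shRNA arrays, against 9.90, 9.59 and 9.73 on the control arrays, a fold of -0.092 with overlap.

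UQCR10, a small subunit of complex III, had 7.90, 7.66 and 8.15 on the S100A4 shRNA arrays, against 7.85, 7.63 and 7.63 on the control arrays. Its fold of 0.20 came with overlapping groups. Without S100A4 shRNA replicate 3 the fold was 0.072, and the authors' deposited table gives 0.019. UQCRB, which lies near the ubiquinone site, had 6.43, 6.31 and 6.52 on the S100A4 shRNA arrays, against 6.37, 6.32 and 6.39 on the control arrays, a fold of 0.061. The Rieske iron-sulphur protein UQCRFS1 had a fold of 0.016, the core protein UQCRC2 had 0.0062, the hinge protein UQCRH had -0.073, and the small subunits UQCRQ and UQCR11 had -0.057 and 0.031. UQCRB, UQCRQ and UQCR11 lay under the negative controls' 95th percentile on all 6 arrays.

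Complex II had the narrowest range of folds among the 4 complexes. All 4 genes had folds just below 0, from -0.035 to -0.0067, and all 4 overlapped between groups, while 2 of the 4 were above 0 in the authors' deposited table and all 4, from 0.19 to 0.22, with arrays shifted to equal positive controls. SDHA, the flavoprotein that oxidises succinate, had log2 signals of 8.76, 8.74 and 8.77 on the S100A4 shRNA arrays, against 8.88, 8.69 and 8.72 on the control arrays. SDHB, the iron-sulphur subunit, had 7.52, 7.48 and 7.55 on the S100A4 shRNA arrays, against 7.50, 7.64 and 7.49 on the control arrays. Their folds were -0.0067 and -0.027.

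The membrane anchors of complex II gave the same picture. SDHC had 10.67, 10.75 and 10.75 on the S100A4 shRNA arrays, against 10.81, 10.72 and 10.75 on the control arrays, a fold of -0.033. SDHD had 8.81, 8.53 and 8.70 on the S100A4 shRNA arrays, against 8.76, 8.66 and 8.73 on the control arrays, a fold of -0.035. The intervals of all 4 genes lay within 1.5-fold.

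Part of the spread within each group was shared by many of the subunit genes. S100A4 shRNA replicate 2 held the lowest signal of its group for 28 of 39 genes and S100A4 shRNA replicate 3 the highest for 28, while control replicate 2 held the lowest of its group for 24 and control replicate 1 the highest for 30. Medians of the deviation from each gene's mean over 6 arrays were 0.033, -0.11 and 0.073 on the S100A4 shRNA arrays and 0.059, -0.061 and -0.027 on the control arrays. The medians over all genes lay between -0.025 and 0.013. Over the upper part of the signal range they were 0.036, -0.040 and 0.022 on the S100A4 shRNA arrays and 0.035, -0.036 and -0.020 on the control arrays, with the same signs as the set.

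**Figure D4:**
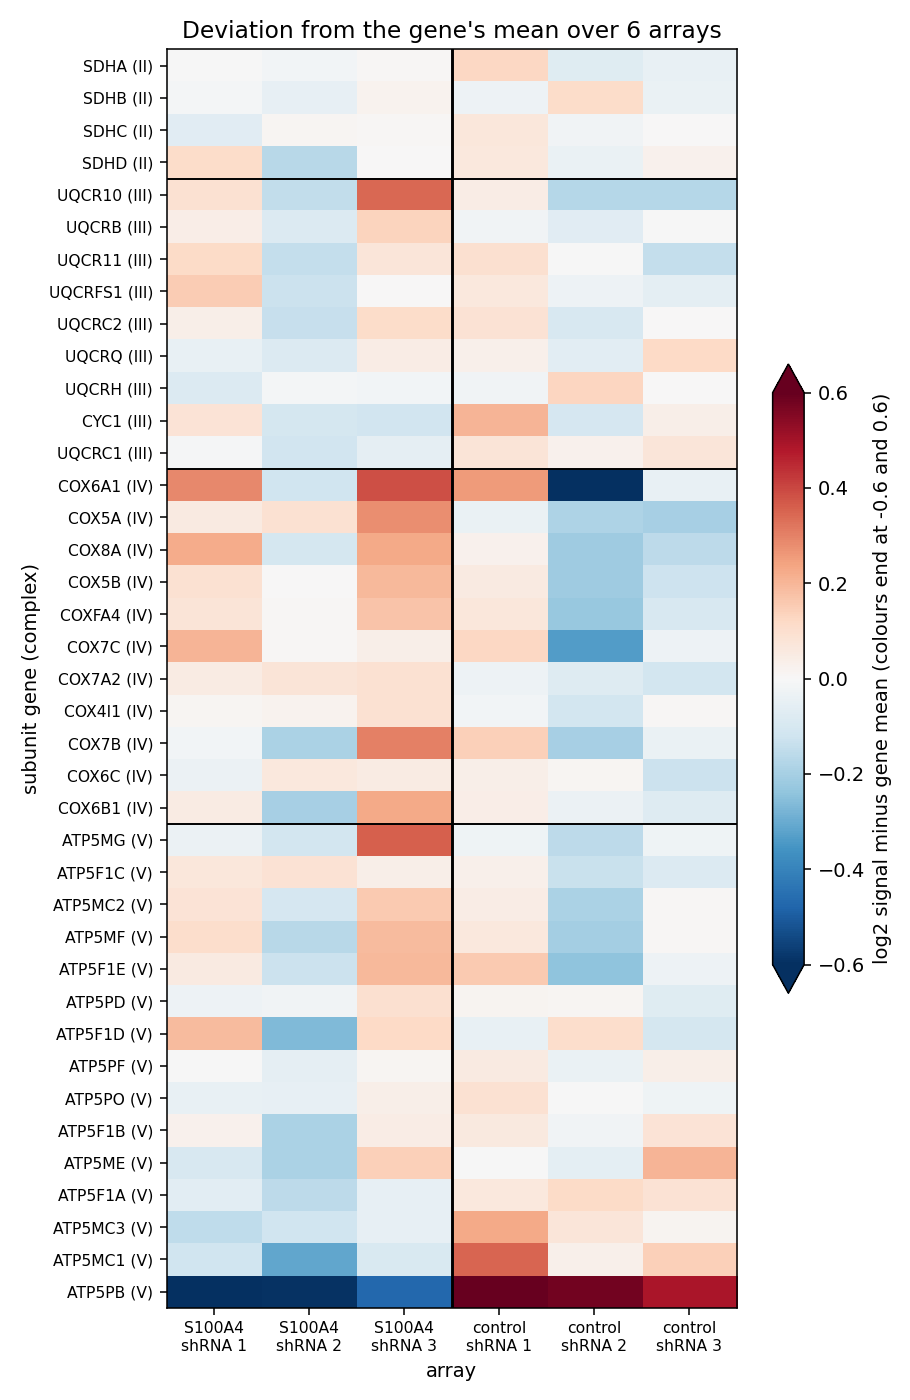
Deviation of each subunit gene's log2 signal from its mean over the 6 arrays (colour, ending at -0.6 and 0.6), with genes down the page by complex and arrays across, S100A4 shRNA left of control shRNA. ATP5PB is low on the S100A4 shRNA arrays and high on the control arrays, S100A4 shRNA replicate 2 is low over most genes, and control replicate 2 is low over most of complex IV.

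Motifs known from promoters of respiratory genes were counted in the set and in the 14838 measured protein-coding genes. The windows were 250 bases before to 50 bases after the start, both strands were searched, and 31 of 39 genes had an entry. The ETS-type motif CCGGAAG stood in 15 of 31 (48.4%, against 16.8%), the NRF1 motif (GCGC, any 2 bases, GCGC) in 9 (29.0%, against 14.3%) and the YY1 core AAGATGGC in 5 (16.1%, against 4.82%). The SP1 core GGGCGG stood in 18 (58.1%, against 65.8%) and CCAAT in 12 (38.7%, against 42.5%).

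The ATP5PB window shown above held the YY1 core at bases 249 to 256, over its start, and the SP1 core at bases 50 to 55, both on the opposite strand. It also held the CGCG element CTCGCGAG, known to be bound by BANP, at bases 84 to 91 and 230 to 237. These matches do not overlap each other. That element was searched after the sequence was seen, and it stood in 1 of the 31 genes with an entry and in 1.84% of measured protein-coding genes. The other genes with the YY1 core, ATP5PF, ATP5PO, SDHB and UQCRC1, had folds between -0.12 and -0.027, and none of them was called. The median over all genes was -0.03. With arrays shifted to equal positive controls the folds of these genes were 0.11 to 0.20. Genes with the ETS-type, NRF1, SP1 or CCAAT motif had folds on both sides of 0. Whether a motif goes with a fold was not tested. A match is letters in a window, and binding was not measured.

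Genes that assemble these complexes or work beside them gave 9 calls among 78 measured genes of the pathway's lists (11.5%), where 11.6% of all genes were called. The assembly factors of complex II (4 measured), complex III (6) and ATP synthase (6), and the tissue or copy forms of the subunits (7), gave 0 calls. The smallest p-values there belonged to SDHAF3 and SDHAF1 (log2 folds -0.40 and -0.12), LYRM7 and BCS1L (-0.20 and -0.19), ATPAF1 and ATPAF2 (0.27 and 0.17), and COX4I2 and UQCRHL (-0.13 and 0.15). Of these, SDHAF3, SDHAF1, ATPAF2 and COX4I2 lay above the negative controls' 95th percentile on 0 arrays.

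Of 23 assembly factors of complex IV, 2 rose and 1 fell, where 6.08% of all genes were called higher and 5.49% lower. LRPPRC, which stabilises mitochondrial messenger RNAs, fell by 0.49 on the log2 scale (limma adjusted p = 0.00291). COX18, which inserts a mitochondrially encoded subunit into the membrane, rose by 0.38 (limma adjusted p = 0.0204), and CMC1, an early chaperone of the complex, by 0.21 (limma adjusted p = 0.0466). COX18 lost its call in 4 of the 6 fits that leave out an array, with an adjusted p up to 0.0744, and CMC1 in all 6, up to 0.13. CMC1 lay above the negative controls' 95th percentile on 0 arrays.

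Among 15 genes of electron carriers and ubiquinone synthesis, 1 rose and 2 fell, with the same shares over all genes. PDSS1, which makes the side chain of ubiquinone, fell by 0.63 (limma adjusted p = 0.00241). CYCS, cytochrome c itself, fell by 0.54 (limma adjusted p = 0.012), and without control replicate 3 its adjusted p was 0.0525. ETFA, which passes electrons from fat oxidation, rose by 0.25 (limma adjusted p = 0.031) and lost its call in all 6 fits that leave out an array, up to 0.114.

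Of 5 carriers of nucleotides and phosphate, 1 was called, SLC25A24, where 6.08% of all genes were called higher. It rose by 0.23 (limma adjusted p = 0.0407), a call lost in all 6 such fits, up to 0.13. Of 12 regulators of respiratory genes, 2 fell, where 5.49% of all genes were called lower. They were the mitochondrial DNA transcription factors TFB2M, by 0.41 (limma adjusted p = 0.0158), and TFAM, by 0.58 (limma adjusted p = 0.0177). TFAM lost its call in 3 of the fits that leave out an array and TFB2M in 1. The authors' deposited table gave log2 differences of -0.056 for TFB2M and -0.058 for TFAM.

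None of these 9 genes had an adjusted p under 0.05 in the authors' deposited table, which gave log2 differences of -0.086 for LRPPRC, -0.25 for PDSS1, -0.12 for CYCS and 0.24 for COX18. With arrays shifted to equal positive controls, LRPPRC, CYCS, TFAM and TFB2M also lost their calls.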

How the data were processed

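Total RNA of A549 cells was read on whole-transcript arrays, 3 per group. The values tested are log2 signals, deposited by the authors for every feature of each array; how they were summarised is not given in the sources used. A second deposited file, a workbook, holds the authors' own comparison: per the file headers it gives each group's mean (log2), p-values and a linear ratio. The submitters' processing notes name Partek 6.0. The workbook supplied gene symbols and an alternative, since its levels differ from the value table (r = 0.78 across genes). Symbols were updated through RefSeq (GRCh38.p14), and the cluster with the highest mean was kept per gene, which left 25141 genes.

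All genes were fitted with limma 3.58.1 (lmFit, eBayes) in R 4.3.3, two-sided, with no signal filter and Benjamini-Hochberg adjustment over all genes. Calls were made where that adjusted p was under 0.05. Each SD covers the 3 arrays of a group, limma gave the SEs and intervals, and a fold is S100A4 shRNA over control shRNA. Exact permutation tests used scipy 1.17.1. The arrays are labelled biological replicates, and p-values measure the spread between these arrays. Their number limits the precision. Negative controls are the array's negative housekeeping probe sets.

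The members and gene lists were chosen with earlier results of these data known. All members are named, and values on every array are given for called members and for the 2 highest and 2 lowest folds of each complex. Each pathway list names up to 4 called genes, or 2 uncalled ones with the smallest p. S100A4, WDR77 and the genes next to a called member are named as well. Other genes, ATP5MC2, ATP5MC3 and ATP5F1A on every array among them, were chosen after their values were seen. A list of complex I core subunits is not reported here. Alternatives left out arrays, changed normalisation, centring, filter, variance model, weights, clusters or threshold, or used the workbook. The fit was tested on simulated data.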

Additional observations from a re-analysis of the deposited data

How the results depend on the processing

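The genes called numbered 2910 (52.5% of them higher with S100A4 shRNA) in the reported fit, and 1539 to 2583 with 1 array left out: 1816 without control replicate 2, 1539 without control replicate 3, 1801 without S100A4 shRNA replicate 1 and 1767 without S100A4 shRNA replicate 3. They numbered 5153 with arrays shifted to equal positive controls, 93.9% of them higher, 532 in the authors' deposited table, and 4390 at an adjusted p under 0.1. Of the 39 subunit genes, 1 was called in the reported fit, where 11.6% of all genes were. The count was 2 with the replicate block (11.5% of all genes), 2 with array weights (15.8%), 3 with the lower 50% of genes left out (28.2% of the genes kept), 3 at an adjusted p under 0.1 (17.5%), 4 after quantile normalisation (12.8%) and 10 with equal positive controls (20.5%). ATP5PB was among them in every setting run. The members' median log2 fold, 0.03 as reported, was 0.26 with equal positive controls and lay between -0.012 and 0.086 with 1 array left out. Over 1031 recalculations of 69 single genes named in the report, the call was unchanged in 947, lost in 48 and gained in 36. The sign of the fold turned in 69 of the 947, all of genes not called in either fit, and 0 called values reversed. The cause was not tested.

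The labels state no pairing, and the replicate numbers were not taken as pairs. Deviations of same-numbered arrays correlated across all genes at 0.083, 0.17 and -0.0087, and those of different-numbered arrays at -0.21 to 0.17. Across the 39 subunit genes the same-numbered arrays correlated at 0.25, 0.43 and 0.215, and different-numbered arrays at -0.39 to 0.214. The lowest of the former thus nearly equals the highest of the latter. A pairing by number is therefore not excluded for the set, and the reported fit does not use it. The replicate block gave 2883 calls over all genes, and ATP5MC1 had a limma adjusted p of 0.0363 with it, against 0.0666 without. Low signal limits the 6 subunit genes under the negative controls on every array, where a change may not be visible.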
